A study of Arabidopsis thaliana with 29 samples.

Results

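Trimethylation of lysine 27 of histone H3 (H3K27me3) was compared between seedlings of the *Arabidopsis* accession Col-0 and the *atring1a,b* double mutant, as lists of enriched regions (peaks) called from ChIP-seq. The peaks followed here are those that differed between the genotypes. A Col-0 peak was taken from the first Col-0 list if it overlapped the second by at least 1 bp, which gave 2863 peaks. It was called lost if neither *atring1a,b* list held a peak over it, and kept otherwise. Lost thus means without a called peak, and marking in *atring1a,b* too weak to be called was not measured. The study found peak overlap a poor measure of H3K27me3 change in these mutants, and compared read intensities instead. A new peak was one of the second *atring1a,b* list that overlapped the first *atring1a,b* list and neither Col-0 list. By this rule 65 Col-0 peaks (2.27%) were lost, 2798 were kept and 93 of 2092 reproducible *atring1a,b* peaks were new, so that 158 regions of the 49103 peaks in all 10 lists are described.

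The series holds 29 samples of 2-week-old seedlings, labelled as without roots, of which 10 are H3K27me3 ChIP-seq libraries, 5 are controls without antibody that are not analysed here, and 14 are RNA-seq libraries. Col-0 and *atring1a,b* each had 2 H3K27me3 libraries and 2 RNA-seq libraries, the first of each grown at 21 °C and the second at 22 °C, under 16 h of light and 8 h of dark, with no treatment. The mutants carry lesions in AtRING1A and AtRING1B in the Col-0 background, and Col-0 is the unmutated control of every comparison. All H3K27me3 libraries were made with the same commercial antibody. The lists of *clf-29* and *atbmi1a,b* (2 each) and of the LHP1 mutants *tfl2-2* and *lhp1-6* (1 each) are used only for comparison. RNA-seq libraries of *swn* and *clf-29swn-21* (2 each) enter only the estimate of the spread, and the study's methods give whole plants grown on medium for the latter, against their label.

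Polycomb group proteins keep developmental genes silent. Polycomb repressive complex 2 (PRC2), with CLF or SWN as its catalytic subunit in seedlings, places H3K27me3, and Polycomb repressive complex 1 (PRC1) contains RING finger proteins of the RING1 and BMI1 families that ubiquitinate histone H2A. LHP1 binds H3K27me3 and is counted with PRC1 in plants. Loss of RING1 or BMI1 proteins in *Arabidopsis* is known for seedlings with embryonic traits.

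The 65 lost peaks lay on all 5 chromosomes, with 18 on chromosome 1, 12 on chromosome 2, 8 on chromosome 3, 9 on chromosome 4 and 18 on chromosome 5. The 3 with the highest score in the first Col-0 list were at chr5:24251914-24254247, over the RING finger gene *AT5G60250*, at chr5:16979646-16981344, over the F-box gene *AT5G42460*, and at chr5:25991928-25994992, over *MAF4*, a MADS-box gene of the family of the flowering repressor FLC. The 3 new peaks with the highest score in the second *atring1a,b* list were at chr1:16291595-16292945, chr2:52180-53205 and chr2:1802796-1803793, and the centres of all 3 lay outside genes. The 300 bp at each centre (TAIR10 coordinates, plus strand) are shown because these peaks lead each set by score. Capitals mark letters matching 1 of 5 motifs on either strand. These were the telo-box with the letters AAACCCT, the repeat motif GAGAGA, the RY element with the letters CATGCA, the G-box with the letters CACGTG, and the CArG box.
Lost, *AT5G60250*, chr5:24252931-24253230: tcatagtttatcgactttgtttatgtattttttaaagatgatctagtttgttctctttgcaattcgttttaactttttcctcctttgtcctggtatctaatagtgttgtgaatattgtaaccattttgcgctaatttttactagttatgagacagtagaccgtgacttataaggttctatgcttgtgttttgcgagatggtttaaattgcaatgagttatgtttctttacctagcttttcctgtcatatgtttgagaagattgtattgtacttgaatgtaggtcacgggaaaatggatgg
Lost, *AT5G42460*, chr5:16980346-16980645: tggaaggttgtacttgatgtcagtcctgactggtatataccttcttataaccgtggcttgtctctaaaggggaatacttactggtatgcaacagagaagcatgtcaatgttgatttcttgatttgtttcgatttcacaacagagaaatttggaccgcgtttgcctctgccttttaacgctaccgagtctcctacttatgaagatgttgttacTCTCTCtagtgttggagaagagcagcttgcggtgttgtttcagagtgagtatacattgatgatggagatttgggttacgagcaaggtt
Lost, *MAF4*, chr5:25993311-25993610: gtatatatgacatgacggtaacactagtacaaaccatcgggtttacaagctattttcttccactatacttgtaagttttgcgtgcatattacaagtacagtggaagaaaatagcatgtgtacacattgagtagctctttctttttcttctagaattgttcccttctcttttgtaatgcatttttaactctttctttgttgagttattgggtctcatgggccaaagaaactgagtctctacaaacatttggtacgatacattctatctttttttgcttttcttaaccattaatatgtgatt
New, chromosome 1, chr1:16292121-16292420: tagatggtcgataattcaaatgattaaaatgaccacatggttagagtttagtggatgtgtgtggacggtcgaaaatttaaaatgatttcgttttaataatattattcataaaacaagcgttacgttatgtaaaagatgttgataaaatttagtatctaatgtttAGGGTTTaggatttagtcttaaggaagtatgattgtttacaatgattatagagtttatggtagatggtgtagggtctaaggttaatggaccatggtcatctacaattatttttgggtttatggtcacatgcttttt
New, chromosome 2, chr2:52543-52842: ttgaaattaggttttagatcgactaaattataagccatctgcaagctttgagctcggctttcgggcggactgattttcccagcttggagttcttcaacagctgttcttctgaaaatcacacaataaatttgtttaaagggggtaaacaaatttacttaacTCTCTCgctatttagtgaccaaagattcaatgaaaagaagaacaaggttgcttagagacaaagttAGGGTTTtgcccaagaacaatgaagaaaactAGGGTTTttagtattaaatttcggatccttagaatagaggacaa
New, chromosome 2, chr2:1803145-1803444: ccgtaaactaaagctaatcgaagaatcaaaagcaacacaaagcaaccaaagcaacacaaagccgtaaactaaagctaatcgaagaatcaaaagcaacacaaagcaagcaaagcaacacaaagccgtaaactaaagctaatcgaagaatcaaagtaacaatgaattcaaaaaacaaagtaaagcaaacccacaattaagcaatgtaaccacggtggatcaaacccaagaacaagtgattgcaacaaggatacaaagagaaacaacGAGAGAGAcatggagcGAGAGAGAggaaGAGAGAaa
The *AT5G60250* window lay in an intron with 19 coding bases, the *AT5G42460* window was entirely coding, the *MAF4* window lay in an intron, and the windows at *AT5G60250* and *MAF4* held none of the motifs. The last of the new windows was a run of short repeats, and the whole peak of 998 bp held 87 matches to GAGAGA.

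Counts of the mutated genes were examined first. AtRING1B (*AT1G03770*) fell, with 8.1 and 15.6 CPM (read counts over TMM-scaled library sizes) in the Col-0 RNA-seq libraries and 1.66 and 0.696 in the *atring1a,b* libraries (log2 fold change -3.29 ± 0.47 (SE, n = 2 and 2), adjusted p = 0.0239 in edgeR's quasi-likelihood test). AtRING1A (*AT5G44280*) went the other way, from 14.4 and 18.6 CPM to 610.0 and 834.0 CPM (log2 fold change 5.45 ± 0.35, adjusted p = 0.000993 in edgeR). A count over a whole gene does not say which part of it the reads came from, so it checks the RING1A lesion in neither direction. The study's methods state that genotypes were checked on the RNA-seq data, but reads by exon were not analysed here, and the mutant libraries are named below by their label. Of the other PRC1 genes, the AtBMI1C gene *AT3G23060* had 1 and 0 reads in Col-0 (0.0291 and 0 CPM) and 4.15 and 1.34 CPM in the mutant, while LHP1 (*AT5G17690*) had 28.6 and 35.8 CPM in Col-0 and 28 and 25.5 CPM in the mutant. AtBMI1A (*AT2G30580*) had 14.5 and 11.2 CPM in Col-0 and 35.3 and 20 CPM in the mutant, AtBMI1B (*AT1G06770*) 12.2 and 16.8 against 22.5 and 16.3 CPM, and EMF1 (*AT5G11530*) 38.5 and 45.5 against 30 and 21.4 CPM. *AT3G23060* and AtBMI1A were called higher by a log2 fold change over 1 and an unadjusted p under 0.05, and LHP1, AtBMI1B and EMF1 were not called. None of these 5 genes had an adjusted p under 0.05 in edgeR, although DESeq2 gave one for *AT3G23060* and EMF1. By the same call none of the 7 PRC2 genes was called in either direction.

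The lists behind the rule differed strongly in extent. The first and second Col-0 lists held 5055 and 2983 nuclear peaks over 10.8 and 7.72 Mb, whereas the first and second lists labelled *atring1a,b* held 6579 peaks over 25.98 Mb and 2209 peaks over 4.94 Mb. The first *atring1a,b* list was the widest of the 10, and 1965 of its peaks had the same score of 3100. Of the 2798 kept peaks, 1650 had a peak in both *atring1a,b* lists, 1117 in the first alone and 31 in the second alone. The number lost therefore rested on the wide list: 1182 Col-0 peaks had no peak in the second *atring1a,b* list, and 96 had none in the first. With only 1 Col-0 list in the rule the number lost was 130 without the first and 141 without the second. The *atring1a,b* ChIP-seq libraries were of very different sequencing depth. The lists do not hold read numbers, which the study gives in its supplement, and the part of depth in these counts was not tested.

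Kept peaks changed length in opposite directions in the pairs of lists. In the first lists the *atring1a,b* peaks over a kept Col-0 peak were longer, with a median length ratio of 1.79 (quartiles 1.39 and 2.6) over 2767 peaks, and 42.2% were more than 2 times as long. In the second lists they were shorter, with a median ratio of 0.801 (quartiles 0.657 and 0.904) over 1631 peaks, and 89.5% were below 1. Likewise 600 *atring1a,b* peaks of the first list spanned 2 or more first-list Col-0 peaks, against 3 in the second lists. No direction of length change was thus shared by the replicates. With 1 list per library there is no replicate error for these ratios.

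**Figure D1:**
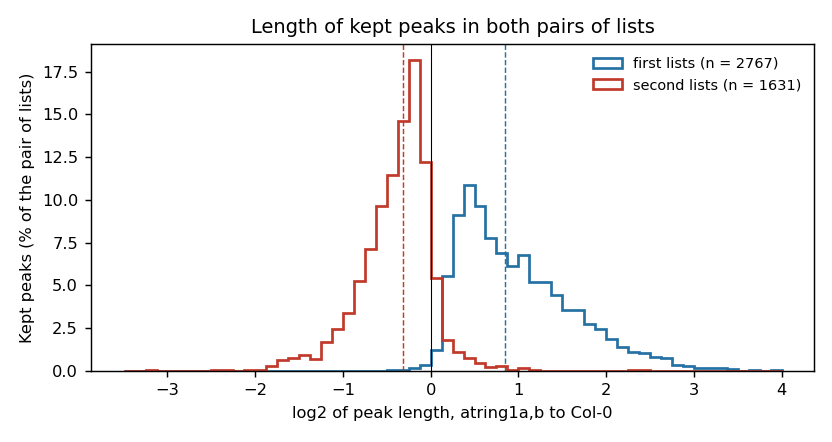
Lengths of *atring1a,b* peaks relative to the Col-0 peaks they overlap, on a log2 axis, as the percentage of kept peaks in the first lists (blue, n = 2767) and in the second lists (red, n = 1631). Dashed lines mark the medians, which correspond to ratios of 1.79 and 0.801 and fall on opposite sides of equal length.

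Lost peaks were short and weak among Col-0 peaks. Their median length was 1016 bp (range 521 to 3065) and their median score in the first list was 92.1, against 1654 bp and 207.7 for kept peaks. When the Col-0 peaks were ranked by score in 5 groups of equal size, 37 of 573 were lost in the lowest group (6.46%, 95% Wilson interval 4.72 to 8.77), 13, 10 and 5 in the groups above it, and 0 of 573 in the highest, which allows a share of up to 0.666%. Intervals here cover counting error only. The score was given by the peak caller and depends on reads as well as enrichment, so it is used only to rank peaks within a list. The gap from a lost peak to the nearest *atring1a,b* peak was 366 bp at the smallest, 6467 bp at the median and 41628 bp at the largest, and 6 lost peaks had a gap under 1000 bp, the *MAF4* peak (957 bp) among them. On the other side of the rule, the smallest overlaps of a kept peak with *atring1a,b* peaks were 165 and 222 bp, and 96.5% of kept peaks were covered over their whole length.

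The lost peaks sat mostly over gene bodies. Their centres fell in a coding exon in 37 of 65 cases (56.9%, against 54.3% of kept peaks) and outside genes and their upstream 1000 bp in 1. A target was defined as a gene that a peak overlapped between 1000 bp upstream of its start and its end, and 64 of the 65 lost peaks had a target, 106 genes in all. One lost peak, at chr2:5429-6307, lay over ribosomal RNA genes, whose copies cannot be told apart by short reads.

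Few lost peaks were present in the lists of the other PRC1 mutant, and most were present in those of the PRC2 and LHP1 mutants. Of the 65 lost peaks, 55 and 56 had a peak in the first and second *clf-29* lists, 56 in the *tfl2-2* list and 56 in the *lhp1-6* list (84.6% to 86.2%). In the first and second *atbmi1a,b* lists, only 7 (10.8%, 95% Wilson interval 5.32 to 20.6) and 14 (21.5%, 13.3 to 33.0) of the same 65 had a peak. Among kept peaks the shares were 87.8% and 82.3% in *clf-29*, 93.7% in *tfl2-2*, 95.2% in *lhp1-6* and 74.1% and 75.5% in *atbmi1a,b*. Among the 536 kept peaks in the lowest of the 5 score groups, 53.9% and 63.6% had an *atbmi1a,b* peak, 67.0% and 61.9% a *clf-29* peak, 78.0% a *tfl2-2* peak and 82.3% an *lhp1-6* peak. All these lists were read against the same Col-0 peaks, so the shares stand side by side and no overlap was tested. By the same rule, *atbmi1a,b* lost 343 of the 2863 Col-0 peaks (12%), *clf-29* 248 (8.66%) and the LHP1 mutants 56 (1.96%).

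**Figure D2:**
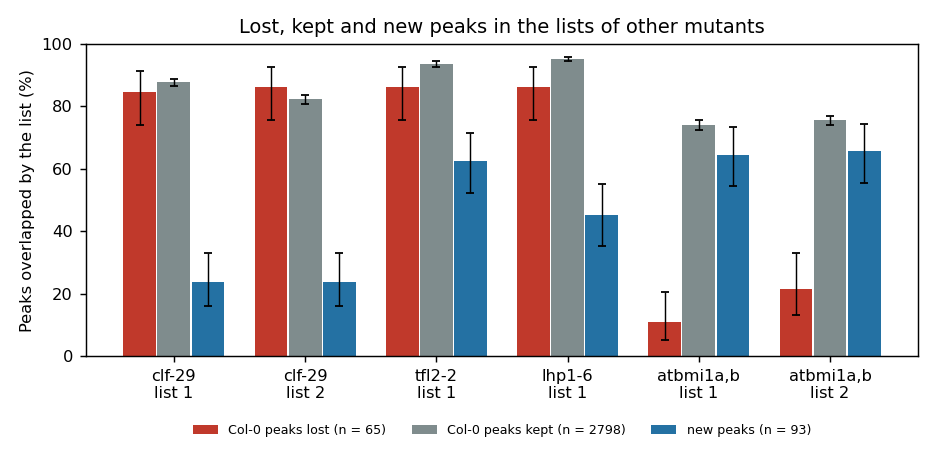
Percentage of the 65 lost, 2798 kept and 93 new peaks that each list of the other mutants overlaps, with 95% Wilson intervals as error bars that cover counting error only. Lost peaks are present at 84.6% to 86.2% in *clf-29*, *tfl2-2* and *lhp1-6* and at 10.8% and 21.5% in *atbmi1a,b*, and new peaks are present at 64.5% and 65.6% in *atbmi1a,b* and at 23.7% in both *clf-29* lists.

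Not all of the 8 lost peaks of highest score were absent from *atbmi1a,b* and present in the other mutants. The peak over *AT5G60250* was 2334 bp long in the first Col-0 list and 2737 bp in the second, and peaks of 2169 and 3314 bp (*clf-29*), 2894 bp (*tfl2-2*) and 1739 bp (*lhp1-6*) lay over it, with none in *atbmi1a,b*. The next in score, over *AT5G42460*, had peaks in every list but those of *atring1a,b* and the first of *atbmi1a,b*. The *MAF4* peak was missing from both *atbmi1a,b* lists and the second *clf-29* list. The others were at chr5:2689376-2691045 (*AT5G08360* and the alpha-galactosidase gene *AGAL2*), chr4:17924263-17925392 (the expansin gene *EXPA20*, *AQI* and *AT4G38213*), chr3:5287180-5289008 (*AT3G15605* and *AT3G15604*), chr1:3244007-3245216 (the sucrose transporter gene *SUT4*) and chr2:9314970-9316470 (the C1 domain gene *AT2G21850*). Over the *AT5G08360* peak both *atbmi1a,b* lists held a peak (584 and 2244 bp), and over the *EXPA20* peak the second did (1546 bp). Both were also present in every *clf-29*, *tfl2-2* and *lhp1-6* list. The last 3 had no peak in either *atbmi1a,b* list and one in every *clf-29*, *tfl2-2* and *lhp1-6* list.

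The transcripts of the targets give a readout that the rule did not use. Of the 106 targets of lost peaks, 97 were in the count files and 89 passed the filter on low counts. Of these 89, 20 were called higher in the libraries labelled *atring1a,b* (log2 fold change over 1 and unadjusted p under 0.05, edgeR) and 0 were called lower; 1 had an unadjusted p under 0.05 in the lower direction with no fold limit, and DESeq2 called 2 lower. The share called higher was 22.5% (95% Wilson interval 15.0 to 32.2), against 4.69% of all 22876 genes tested. The share called lower over all genes was 2.1%. Among targets of kept peaks, which also lay under H3K27me3 in Col-0, 349 of 2854 (12.2%) were higher and 64 (2.24%) lower. The median log2 fold change was 0.30 over targets of lost peaks, 0.13 over targets of kept peaks and 0.01 over all genes tested. Only genes that passed the filter enter these shares; restricted to genes with a mean of 1 CPM or more, a limit chosen after the data were seen, they were 22.8%, 10.7% and 3.71%. In these bulk samples, more or fewer cells of a type and more or less RNA per cell cannot be told apart.

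Of the 89 genes, 30 (33.7%) were higher in both *atring1a,b* libraries than in both Col-0 libraries, against 15.7% of all genes tested. The 20 called genes, which were chosen on these same libraries, were among them. Leaving out 1 library at a time gave 18 to 21 targets higher of 89 (20.2% to 23.6%) and 0 to 3 lower. The share over all genes moved more. Without the first Col-0 library it was 9.66% higher and 6.54% lower over all genes and 15.5% higher over targets of kept peaks, beside 22.5% higher and 3.37% lower over targets of lost peaks. In the other 3 such fits it was 3.79% to 4.72% higher over all genes. When the adjusted p had to be under 0.05, 7 of the 89 were higher and 0 lower, against 0.638% and 0.035% of all genes, and DESeq2 gave 15 higher by the same limit. That stricter call was not stable. A fit of the 4 Col-0 and *atring1a,b* libraries alone passed no gene at all of the 20467 it tested, so that none of the 7 held there, nor without the first Col-0 library, while 1 held without the second Col-0 library, 1 without the first *atring1a,b* library and 4 without the second. All 7 kept their direction in each of these fits.

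**Figure D3:**
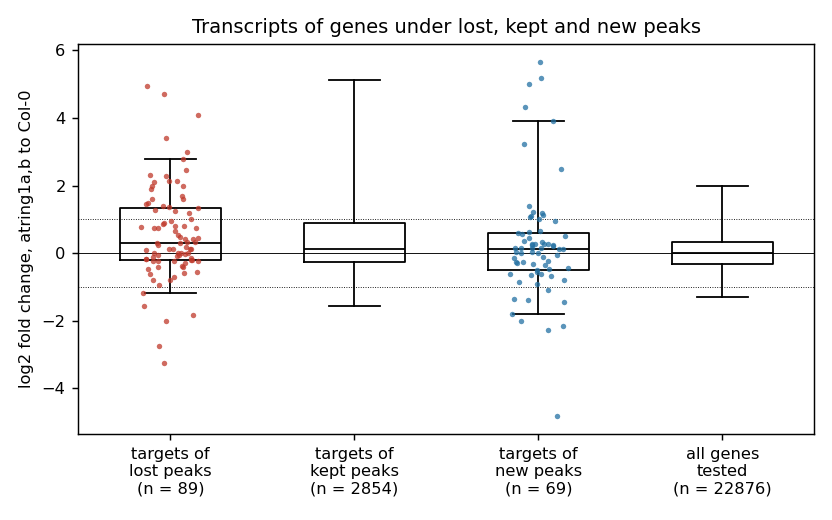
log2 fold changes (*atring1a,b* to Col-0) of tested targets of lost peaks (n = 89), kept peaks (n = 2854) and new peaks (n = 69) and of all 22876 genes tested. Boxes span the quartiles with the median as a line, whiskers the 5th to 95th percentiles, points are single targets of lost or new peaks and dotted lines mark changes of 1. The upper quartile is 1.32 for targets of lost peaks and 0.35 for all genes.

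*AT5G60250*, under the lost peak of highest score, encodes a RING finger protein (chr5:24252138-24255900, plus strand). It had 1.49 and 0.736 CPM in the Col-0 libraries and 22.0 and 16.6 CPM in the *atring1a,b* libraries, so that the groups lay more than 10-fold apart. The log2 fold change was 4.09 ± 0.54 (SE, adjusted p = 0.0175). The neighbouring target *SEN2*, a tRNA splicing endonuclease gene, had 3.44 and 2.89 CPM in Col-0 and 3.45 and 2.29 CPM in the mutant and was not called. In *atbmi1a,b*, where the peak was also absent, *AT5G60250* had 32.0 and 24.4 CPM, and in *clf-29*, where it was present, 0.762 and 2.11 CPM.

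*MAF4* (*AT5G65070*, chr5:25992193-25996202, plus strand) rose from 3.82 and 6.28 CPM to 19.0 and 21.4 CPM (log2 fold change 2.00 ± 0.28, adjusted p = 0.0238). *MAF5* (*AT5G65080*), the next gene downstream, also lost its peak at chr5:25997438-25999267, but its Col-0 libraries stood apart at 1.87 and 30.0 CPM, against 18.3 and 34.8 CPM in the mutant, and it was not called (log2 fold change 0.74 ± 0.91, adjusted p = 0.848). On a log2 scale with 0.5 CPM added, the *MAF5* ratio was 2.99 between the first libraries (21 °C) and 0.21 between the second (22 °C). Each ratio sets 1 library against 1, so temperature and library cannot be told apart. The upstream members of the cluster, named outside the naming rule, had peaks in the first *atring1a,b* list alone. *MAF2* (*AT5G65050*, listed as *AGL31*) and *MAF3* (*AT5G65060*) had no Col-0 peak, and in the first *atring1a,b* list peaks of 6784 bp (chr5:25980028-25986811) and 3864 bp (chr5:25987108-25990971) lay over them. The second *atring1a,b* list had no peak in the cluster, so these were not new peaks by the rule. The first *atring1a,b* list was the widest of all, and a gain of marking at these genes rests on it alone. *MAF2* transcripts were 37.5 and 62.8 CPM in Col-0 and 21.1 and 21.5 CPM in the mutant (log2 fold change -1.24 ± 0.38, adjusted p = 0.287). *MAF3* had 26.1 and 24.0 against 19.5 and 16.5 CPM and was not called. The MAF genes are close relatives, and reads shared between them could be split by the counting.

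**Figure D4:**
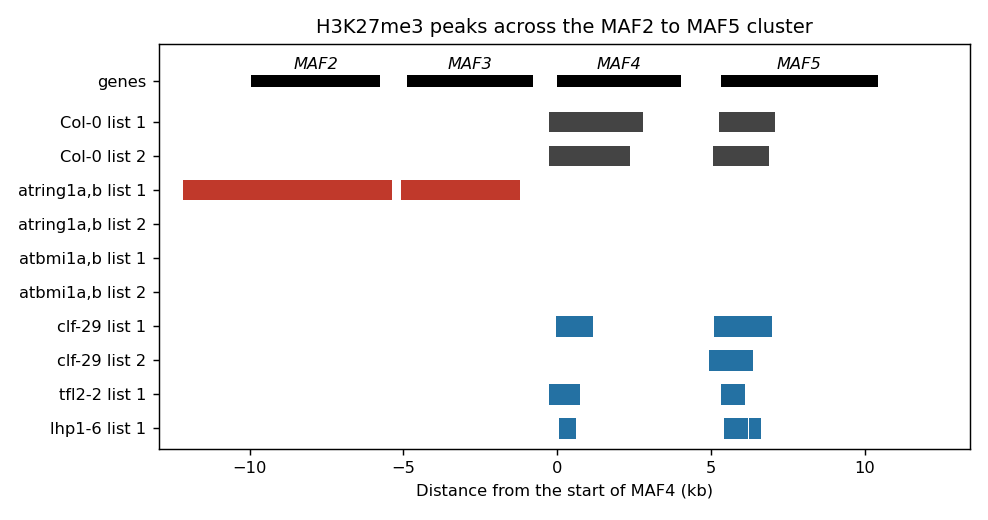
H3K27me3 peaks of the 10 lists across the *MAF2* to *MAF5* genes, drawn against the distance in kb from the start of *MAF4*. Col-0, *tfl2-2*, *lhp1-6* and the first *clf-29* list have peaks at *MAF4* and *MAF5*, the *atbmi1a,b* lists and the second *atring1a,b* list have none, and the first *atring1a,b* list has 2 peaks, over *MAF2* and *MAF3*.

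The other 5 targets with an adjusted p under 0.05 covered unrelated roles. *SUT4*, which encodes a vacuolar sucrose transporter, had 9.59 and 9.02 CPM in Col-0 and 26.6 and 18 CPM in the mutant (log2 fold change 1.26 ± 0.22, adjusted p = 0.048). *CRH1* (*AT4G36280*), a GHKL ATPase gene of the MORC family of silencing factors, had 5.36 and 8.29 CPM in Col-0 and 29.2 and 24.5 CPM in the mutant (1.98 ± 0.31, adjusted p = 0.0331). *AT3G62460*, a putative endonuclease or glycosyl hydrolase gene, was the most abundant of the 7, with 8.63 and 9.81 CPM against 40.8 and 50.8 CPM (2.31 ± 0.28, adjusted p = 0.0133). The groups did not overlap for any of these genes, which were chosen on these same libraries. That order was found for 15.7% of all genes tested.

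*AT5G25230*, related to translation elongation factors, had 1.17 and 0.736 CPM in Col-0 and 7.31 and 7.95 CPM in the mutant (log2 fold change 2.99 ± 0.43, adjusted p = 0.0238). *AT4G29770*, a target of trans-acting siRNAs, was nearly silent in Col-0, with 5 and 1 reads, and had 126 and 47 reads in the mutant (4.72 ± 0.68, adjusted p = 0.0238). In the *atbmi1a,b* libraries *SUT4* stood at 36.5 and 30.5 CPM, *CRH1* at 43.2 and 43.1 CPM and *AT3G62460* at 37.4 and 27.2 CPM. *AT5G25230* differed from them there, with 0.222 and 0.3 CPM. The *atbmi1a,b* lists held peaks of 1003 and 2429 bp over its lost peak, and none over the lost peaks at *SUT4*, *CRH1* and *AT3G62460*. The *atbmi1a,b* values are set beside the same Col-0 libraries and were not tested.

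**Figure D5:**
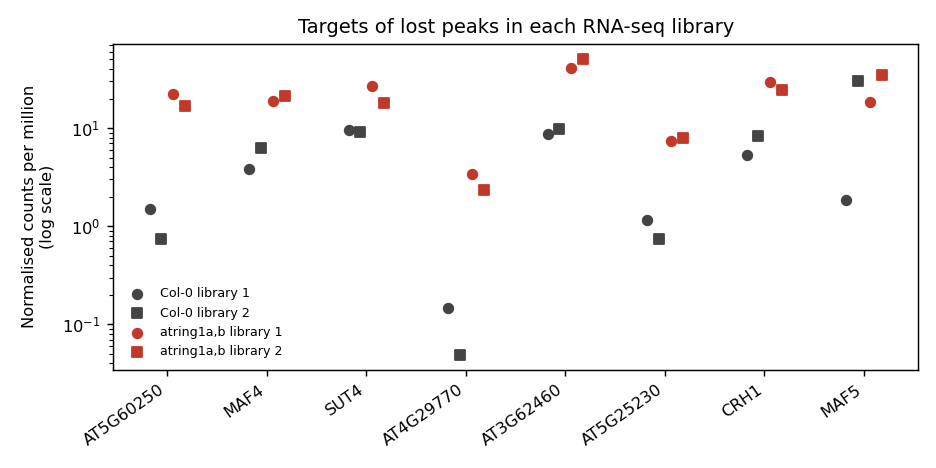
Normalised CPM (log axis) in each RNA-seq library for the 7 targets of lost peaks with an adjusted p under 0.05 and for *MAF5*, with Col-0 in dark grey and *atring1a,b* in red, circles for the first library and squares for the second. For the 7 genes, chosen on these same libraries, both red points lie above both grey points, and for *MAF5* the Col-0 libraries lie at 1.87 and 30.0 CPM.

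Among the other 13 targets called higher, all with an adjusted p above 0.05, 4 lay under the 8 lost peaks of highest score. *AT5G42460* had 4.81 and 10.4 CPM in Col-0 and 20.8 and 19.1 CPM in the mutant (log2 fold change 1.4 ± 0.41, adjusted p = 0.254). *AT2G21850* had 2.07 and 2.94 against 16.8 and 10.5 CPM (2.45 ± 0.50, adjusted p = 0.078), and all 3 C1 domain genes among the targets were called higher, as were 2 of the 6 targets with a RING product, both groupings chosen after their values were seen. *AT5G08360* had 1.63 and 0.736 against 4.07 and 4.92 CPM (adjusted p = 0.305), and *AT3G15605* had 2 and 1 reads in Col-0 against 99 and 19 in the mutant (adjusted p = 0.0562). At 7 of the 8 highest lost peaks a target was thus called higher. The exception was the peak over *AT4G38213*, which was not measured because it has no entry in the count files used here, with the other targets *EXPA20* (1.43 and 2.4 against 3.37 and 1.74 CPM) and *AQI* (77.5 and 71.6 against 72.1 and 55.1 CPM). Among the 8 kept peaks of highest score, 4 had a target called higher. Over all lost peaks with a tested target the count was 19 of 61 (31.1%), and over kept peaks 352 of 2167 (16.2%).

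Targets of lost peaks had higher median transcript levels in Col-0 than targets of kept peaks, as a description with no test. In RPKM, which is CPM divided by the exon length in kb, the median over targets in the count files was 2.39 and 3.02 in the Col-0 libraries for lost peaks, 0.262 and 0.304 for kept peaks and 0.0464 and 0.0452 for new peaks. In the *atring1a,b* libraries the medians were 5.32 and 4.98, 0.727 and 0.577, and 0.121 and 0.115 RPKM. The order of the 3 sets was the same in all 4 libraries.

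Of the 102 genes on 10 lists of regulators and markers, 31 were targets of a Col-0 peak. Of these 31, 29 kept it and 2 lost it (6.45%), *MAF4* and *MAF5*, beside 106 of all 4558 targets of Col-0 peaks (2.33%). None of the 102 lay under a new peak. The calls on the lists are to be read beside 4.69% of all genes higher and 2.1% lower. Of the 13 seed storage and oil body genes, which encode cruciferins, 2S albumins and oleosins, 8 had a Col-0 peak and all 8 kept it. All 13 were called higher, with summed levels of 10.9 and 2.16 CPM in Col-0 and 3390 and 235.0 CPM in the mutant, although none had an adjusted p under 0.05 and the *atring1a,b* libraries differed more than 10-fold from each other. Of the 13 embryo regulators, 7 were called higher and 2 of these had an adjusted p under 0.05: *ABI3* (0 reads in both Col-0 libraries, 26.2 and 4.52 CPM in the mutant) and *ABI4* (0 reads, then 2.89 and 1.94 CPM). *DOG1* and *AGL15*, the 2 embryo regulators with a Col-0 peak, kept it. Of the 12 tested flowering time genes, 1 was called higher (*MAF4*) and 5 lower (*FLC*, *MAF1*, *MAF2*, *AGL19* and *AGL24*), none of the latter with an adjusted p under 0.05. Of the 15 floral MADS-box genes, 4 were called higher (*PI*, *SEP1*, *SEP2* and *STK*), 1 of them with an adjusted p under 0.05, and 0 lower. Of the 14 meristem and organ patterning genes 5 were called higher and 0 lower. Of the 7 auxin genes 2 were higher and 1 lower. None of these had an adjusted p under 0.05 in the last 2 lists.

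The libraries were checked against the tissue in the labels. RNA-seq totals ran from 17277027 to 36205758 counts on genes over the 14 libraries. The 7 leaf photosynthesis markers were present in all 4 libraries (summed 10600 to 16600 CPM) and the 6 root markers together stayed between 0.696 and 2.11 CPM. No gene of either list was called. Nothing in the labels says whether the libraries of a genotype came from separate sowings, and the p-values measure only the spread between these libraries.

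New peaks were weaker and more often away from genes. The second-list score of the 93 new peaks had a median of 68.4 (range 50.3 to 144.5), against 84.1 for the 1999 second-list *atring1a,b* peaks shared with Col-0. Of the new peaks 10 had no target (10.8%, 95% Wilson interval 5.95 to 18.7), against 3.05% of shared peaks (2.38 to 3.9), and 22 had their centre outside genes and their upstream 1000 bp. The first-list *atring1a,b* peak over a new peak reached a Col-0 peak in 14 of 93 cases (15.1%), so that 79 stood apart from called Col-0 peaks. Marking in Col-0 too weak to be called as a peak was not measured. The gap to the nearest Col-0 peak ran from 188 bp to 275385 bp with a median of 5525 bp, and it was under 1000 bp for 10 new peaks. The number of new peaks also rested on the choice of lists, with 150 without the first *atring1a,b* list, 2076 without the second, 433 without the first Col-0 list and 149 without the second.

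New peaks were shared with some mutants more than others. In *atbmi1a,b*, 60 and 61 of the 93 had a peak in the first and second lists (64.5% and 65.6%), against 22 in each *clf-29* list (23.7%, 95% Wilson interval 16.2 to 33.2), 58 in *tfl2-2* (62.4%) and 42 in *lhp1-6* (45.2%). None of the 6 lists held 10 of the new peaks, and all 6 lists held another 6. The peak of highest score, on chromosome 1, was 1351 bp long in the second *atring1a,b* list and 1828 bp in the first, and had counterparts of 1204 and 1486 bp in *atbmi1a,b* and in no other list.

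Of the 8 new peaks with the highest score, 3 had no target. The remaining 5 lay at chr2:52180-53205 (*AT2G01035*), chr5:16288725-16290388 (the kelch repeat gene *AT5G40680* and *AT5G40690*), chr2:2541525-2542619 (the pseudogene *AT2G06430*), chr5:14637561-14640435 (*AT5G37030*, *AT5G37040*, *AT5G37050* and *AT5G05355*) and chr4:1049773-1052106 (the poly(ADP-ribose) polymerase gene *PARP2*). *PARP2* had 11.5 and 4.22 CPM in Col-0 and 7.93 and 4.52 CPM in the mutant, and *AT5G40690* had 2.01 and 12.8 against 1.71 and 3.68 CPM. The other targets of these peaks in the count files stayed below 1 CPM in all 4 libraries, and no target under the 8 peaks was called.

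Most genes under new peaks were silent or nearly so. Of 144 targets, 121 were in the count files, 35 of these had no read in any of the 4 libraries, and 69 passed the filter. Of the 69, 4 were called lower (5.8%, 95% Wilson interval 2.28 to 14) and 7 higher (10.1%), none with an adjusted p under 0.05, and the median log2 fold change was 0.13. The share lower is to be read against 2.1% of all genes; without the second Col-0 library or without the second *atring1a,b* library 1 of 69 was called lower (1.45%). The 4 lower genes, outside the naming rule and chosen after their values were seen, were *IAA29*, an auxin-responsive Aux/IAA repressor gene, *UGT85A1*, the kinase gene *WNK3* and *AT1G04090*, and 3 of them were lower in both *atring1a,b* libraries than in both Col-0 libraries, an order found for 12.5% of all genes. *UGT85A1*, a UDP-glycosyltransferase gene, had 66.6 and 80.8 CPM in Col-0 and 40.2 and 29.6 CPM in the mutant. *IAA29* had 24.2 and 169.0 against 30.4 and 9.29 CPM, lower in the mutant between the second libraries and not between the first. Of the 7 higher genes, 5 had 3 reads or fewer in both Col-0 libraries together.

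Base composition and motif content of the sets are given as a description. In 1000 bp windows at the peak centres the median GC content was 40.9% for lost peaks (quartiles 36.9 and 43.6), 37.9% for kept peaks and 36.8% for new peaks, and 36.6% for windows tiling the nuclear genome. The G-box letters CACGTG were in 24 of 65 lost windows (36.9%, 95% Wilson interval 26.2 to 49.1), 15.9% of kept windows, 8.6% of new windows (4.42 to 16.1) and 10.3% of genome windows. CATGCA was in 58.5% of lost, 49.2% of kept, 34.4% of new and 33.4% of genome windows. AAACCCT was in 20% of lost (12.1 to 31.3), 30.4% of kept, 33.3% of new (24.6 to 43.4) and 21.9% of genome windows. GAGAGA was in 73.8%, 65.3%, 67.7% and 58.7%, and the CArG box in 3.08%, 5.75%, 9.68% and 6.17%, of the windows in the same order. Lost windows had the highest median GC content, and its part in these shares was not tested. A match says only that the letters are present.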

How the data were processed

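H3K27me3 ChIP-seq and RNA-seq of seedlings without roots were analysed. The authors deposited 1 peak list per ChIP-seq library, called with MACS14 on TAIR10, with a score for each peak that is used here only for ranking, because its scale is not given. The authors deposited raw read counts per gene from HTSeq (processing notes also name FastQC and DESeq). A deposited table of the authors' own fold changes and p-values was not used. Summary entries that name no gene (2.66% to 3.43% of counts) were left out. So were organelle peaks, 1 in the first Col-0 list, 5 in the first *clf-29* list, 5 in *tfl2-2* and 10 in *lhp1-6*. Targets, exons and sequences came from RefSeq TAIR10.1, whose nuclear sequence is that of TAIR10, and 32835 of 33602 count IDs (97.7%) matched a nuclear RefSeq gene.

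Peaks overlapping by 1 bp were counted as shared. Counts of all 14 RNA-seq libraries were fitted with edgeR 4.0.16 in R 4.3.3 (TMM, filterByExpr, quasi-likelihood test, Benjamini-Hochberg adjustment over 22876 genes). Log2 fold changes are edgeR's, with the SE derived from the F statistic. CPM used effective library sizes, and within-replicate ratios a pseudocount of 0.5 CPM. Overlaps and fits were tested on simulated data. Alternatives were DESeq2 1.42.0, other scaling, filters, target definitions, a replicate block and leaving out each library. Genes were named by a rule: the PRC1 genes, the targets of the 8 highest-scoring lost and new peaks, list genes under lost or new peaks, and up to 10 targets per set with an adjusted p under 0.05, with sequences for the top 3 peaks of each set. The members, the gene lists and the rule were chosen with earlier results of these data known. Total counts of the Col-0 libraries were 35517323 and 21394358, and of the *atring1a,b* libraries 36119850 and 20662908.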

Additional observations from a re-analysis of the deposited data

How the results depend on the processing

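The number of lost peaks was 65 and stayed between 59 and 67 when the atring1a,b peaks had to cover 50% of the Col-0 peak, when the second Col-0 list gave the peaks, or when no atring1a,b peak could lie within 1000 bp (the last added after the data were seen). It was 30 among Col-0 peaks with a score of 100 or more, 112 when only atring1a,b peaks with a score of 100 or more counted as present, and 96 to 1182 with 1 list left out. The number of new peaks was 93, 83 with a 1000 bp margin, 87 when the first list gave the peaks, 11 with a score of 100 or more and 149 to 2076 with 1 list left out. The median length ratio of kept peaks was 0.801 in the second lists and reversed to 1.79 in the first lists, and the cause was not tested. Genes called higher numbered 1074 and lower 480. A fit of the 4 libraries alone, which has fewer samples, gave 679 and 309, an adjusted p under 0.05 gave 146 and 8 (DESeq2 516 and 164), and leaving out 1 library gave 864 to 2206 and 275 to 1492, the highest of each without the first Col-0 library. Targets of lost peaks called higher were 22.5%, and 20.2% to 23.6% with 1 library left out, 20.4% to 30.9% under the other fits and target definitions, and 7.87% with an adjusted p. Targets of new peaks called lower were 5.8%, 1.45% to 8.7% with 1 library left out and 0% with an adjusted p. With the replicate number as a block, in a fit without tfl2-2 and lhp1-6, 1144 genes were higher and 530 lower. In that fit 22.5% of targets of lost peaks were higher, 1 such target was lower, and 8.06% of targets of new peaks were lower. The block is not one for temperature, since both swn libraries were grown at 22 °C. The numbers were not taken to pair the samples in the main fit. The deviations of same-numbered libraries correlated at 0.254 between Col-0 and atring1a,b, and from -0.124 to 0.832 over 15 pairs of genotypes. Pairs with swn could not show a shared difference between the temperatures. Col-0 correlated at 0.832 with atbmi1a,b and at 0.799 with clf-29. For atring1a,b the values were 0.278 with atbmi1a,b and 0.323 with clf-29. A difference shared by same-numbered libraries of some genotypes was thus left out of the main fit, and its cause was not tested. None of the genes named by the rule changed sign under any alternative fit that called it by an adjusted p under 0.05. Genes named outside the rule, such as MAF2, MAF3, ABI3, ABI4, IAA29 and UGT85A1, were not put through this check. With 2 libraries per genotype and peak lists without read counts, the size of a change in H3K27me3 at a member could not be estimated.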
